A study of Mus musculus with 5 samples.

Results

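The 3 Gli genes, Gli1, Gli2 and Gli3, were described through the ATAC-seq peaks in and around them in the anterior forelimb bud of mouse embryos. Peaks of 5 libraries that shared at least 1 bp were merged into regions, and every region in a gene body (mm10) or within 100 kb to either side was taken. This gave 122 of the 86713 regions of the whole genome, of which 31 lay at Gli1, 60 at Gli2 and 31 at Gli3. ATAC-seq uses a transposase that cuts open chromatin, so a peak marks accessible DNA. Each library came from about 50K cells of the anterior forelimbs of a single embryo at E11.5 (40 to 48 somites). The 2 control embryos had the genotype Prx+/+;Smarcc1c/c, and the 3 mutant embryos were PrxCre/+;Smarcc1c/c, so both groups carried the conditional Smarcc1 allele and the mutants alone carried Cre. BAF155, the product of Smarcc1, belongs to the core of the SWI/SNF-type remodelling complex BAF, and the series asked whether this complex takes part in repression by GLI proteins. Prx-Cre acts in limb mesenchyme, and the ectoderm, vessels and blood of a bud are not its targets. The extent of the deletion was not measured here, because a peak list does not show it.

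GLI proteins are the zinc finger transcription factors at the end of the Hedgehog pathway. Without ligand, the receptor Patched holds Smoothened inactive and GLI3, and to a lesser degree GLI2, is cut into a repressor. With ligand, this processing stops and GLI2 and GLI3 can act as activators. Gli1 encodes an activator only and is itself a standard transcriptional target of the pathway. In the limb bud, Sonic hedgehog comes from the posterior margin, and the anterior tissue sampled here is where the GLI3 repressor prevails. Loss of Gli3 gives extra digits.

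The start of Gli2 and the start of Gli3 lay in the strongest or nearly strongest region of their locus in all 5 libraries, and their promoter sequences are shown because accessibility there was found in every embryo. Sequences of the 250 bases before the start were given for 2 of the 3 genes by RefSeq (GRCm38.p6, the coordinates of mm10), namely Gli2 at chr1:119053620-119053869 on the minus strand and Gli3 at chr13:15463473-15463722 on the plus strand. Capitals mark GC boxes (GGGCGG, a motif bound by Sp1-type factors).
Gli2: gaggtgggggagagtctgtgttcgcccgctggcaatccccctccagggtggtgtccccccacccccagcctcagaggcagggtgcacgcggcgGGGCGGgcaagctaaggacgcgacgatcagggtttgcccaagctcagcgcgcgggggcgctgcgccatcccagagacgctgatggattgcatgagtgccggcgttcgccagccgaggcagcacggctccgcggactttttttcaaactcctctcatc
Gli3: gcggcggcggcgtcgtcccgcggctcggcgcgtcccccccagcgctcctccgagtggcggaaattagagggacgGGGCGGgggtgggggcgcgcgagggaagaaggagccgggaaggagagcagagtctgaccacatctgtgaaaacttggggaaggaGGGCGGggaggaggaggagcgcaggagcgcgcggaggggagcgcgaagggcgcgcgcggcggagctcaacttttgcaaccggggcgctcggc
Both promoters were rich in G and C. The Gli2 promoter was 67.2% G and C with 22 CpG dinucleotides, and the Gli3 promoter 72.8% with 34, against a median of 52.4% and 6 over the 32619 promoters of the table. Of the letters searched on both strands, the GC box (GGGCGG or CCGCCC) was found once in Gli2 and at 2 places in Gli3, and 33.0% of all promoters held it. The consensus bound by GLI proteins (GACCACCCA or TGGGTGGTC) was in neither window and in 74 of all promoters (0.227%). Neither window held the CCAAT box (CCAAT or ATTGG, in 34.01% of all promoters) or the TATA box (TATAAA or TTTATA, in 12.4%). None of these motifs contains another.

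The libraries differed in how many peaks their lists held. Controls 1 and 2 had 68959 and 60333 peaks, and mutants 1, 2 and 3 had 36719, 42794 and 27194. Read depth is unknown. The background level that the spacing of the deposited folds implies, a relative measure of depth, was 4.77 and 6.42 fragments per position in the controls. In mutants 1 to 3 it was 5.48, 5.09 and 4.95. The lowest fold of any listed peak was 2.29 to 2.52, so a region with no peak may still be accessible below that level. At the ends of marker genes, 7 of 7 limb mesenchyme genes had a peak in every library except mutant 3, which had 5. In that library 2 of 4 anterior limb markers and 1 of 3 muscle precursor markers had one, and in each of the other 4 libraries all of these did. Of 5 ectoderm markers 4 had a peak in each control and 3, 3 and 2 in the mutants, and of 5 endothelial markers 3 and 1 in the controls and 1 in each mutant. Markers of posterior limb (Shh, Hand2, Hoxd13) and of hindlimb (Tbx4, Pitx1, Isl1) also had gene-end peaks, 2 or 3 of 3 in every library, so such peaks do not show which part of which limb was taken. Of 4 blood markers 2 had a peak in every library, and of 3 neural crest and glia markers 2 or 3. The part of list length and of cell mixture in the values below was not tested.

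Fewer regions of the Gli loci held a peak in each mutant than in either control. Of the 122 regions, control 1 held 97, control 2 held 75, mutant 1 held 44, mutant 2 held 50 and mutant 3 held 28. No mutant reached the lower control, and the same was true over all regions of the genome. There the libraries held 65278, 56368, 32398, 38839 and 23634 of 86713 regions, in the same order. The mean share was 70.5% ± 12.8 (SD, n = 2) in controls and 33.3% ± 9.32 (SD, n = 3) in mutants, a difference of -37.2 percentage points (exact two-sided permutation test over libraries, p = 0.2, the smallest p that 2 against 3 libraries allow). When each list was reduced to its 27194 strongest peaks, the length of the shortest list, the difference was -13.7 points (exact permutation p = 0.2). In bulk tissue, fewer cells with an open region and less opening per cell cannot be told apart.

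The loci differed in how far the groups stood apart. At Gli2 the 5 libraries held 51, 35, 22, 22 and 10 of 60 regions, in the order control 1, control 2, mutant 1, mutant 2, mutant 3 that is kept throughout. The difference at Gli2 was -41.7 points (exact permutation p = 0.2), with no overlap between the groups. At Gli3 they held 29, 21, 10, 11 and 6 of 31, a difference of -51.6 points (exact permutation p = 0.2), again with no overlap. Over all 86713 regions of the genome the groups did not overlap either. There a control held at least 56368 regions and a mutant at most 38839. At Gli1 the 5 libraries held 17, 19, 12, 17 and 12 of 31, a difference of -14.0 points (exact permutation p = 0.4), and mutant 2 equalled control 1. With lists of equal length the counts at Gli1 were 11, 10, 10, 11 and 12 of 17. At Gli2 they were 21, 19, 15, 15 and 10 of 26, and at Gli3 9, 9, 10, 6 and 6 of 14. Of the 3 loci, only Gli2 still had both controls above every mutant. Counts per library over all regions at equal length are not given here, so this cannot be set against the genome. Whether the loci differ from each other in this was not tested.

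**Figure D1:**
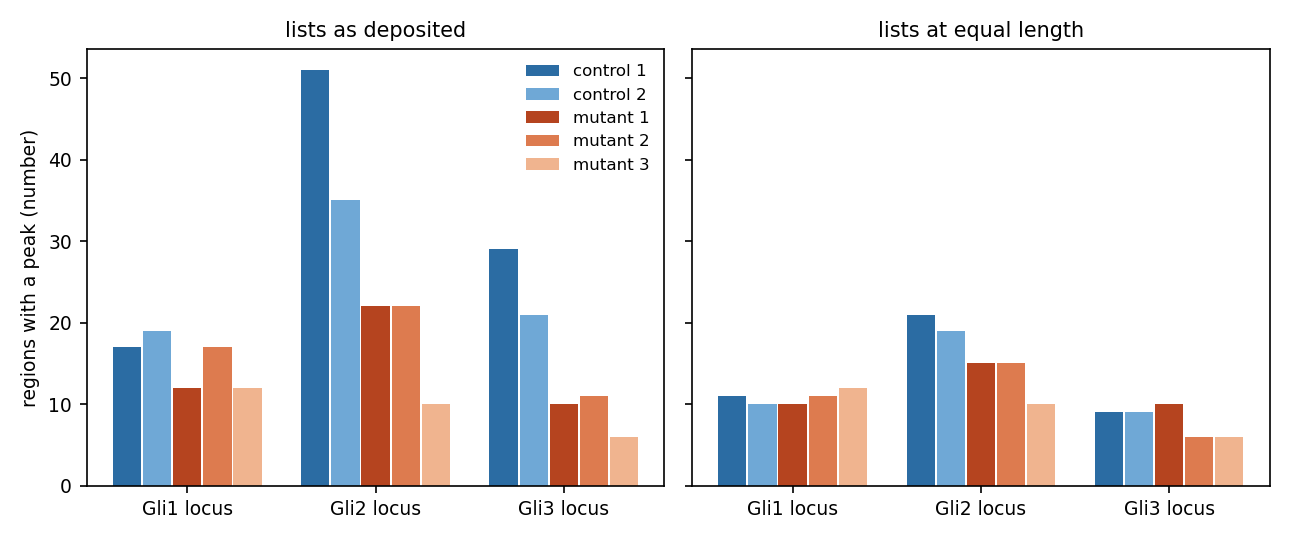
Number of regions with a peak (vertical axis) at each Gli locus, with 1 bar per library, for the lists as deposited (left) and for the 27194 strongest peaks of each list (right). With the deposited lists both control bars are above all mutant bars at Gli2 and Gli3, mutant 2 equals control 1 at Gli1 with 17 regions, and on the right only Gli2 keeps both controls above every mutant. Over all regions of the genome the groups did not overlap with the deposited lists either. Counts over the genome at equal length are not given here.

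Of the 67 regions of the loci that both controls held, 25 (37.3%) had no peak in any mutant. Over all regions of the genome in both controls the share was 30.4%. The exact binomial 95% interval of the 37.3% was 25.8 to 50.0. It gives counting error only, takes neighbouring regions as independent and leaves out the spread between libraries. Of the 67 regions, a further 11 were held by 1 mutant, 8 by 2 and 23 by all 3. With lists of equal length, the loci lacked 8 of 34 (23.5%) and the whole genome 13.4%. That genome share covers gene-end and distal regions together. With the full lists, 59 of the 67 regions of the loci were distal, against 31183 of 45158 over the genome. Regions of like kind and strength were not compared at equal length. With the full lists, Gli2 lacked 14 of 32, Gli3 8 of 21 and Gli1 3 of 14. Leaving out control 2, which has the higher background level, raised the count to 52 of 99 because the regions of control 1 alone then entered. No region of the 122 had a peak in all 3 mutants and in no control, where the share over all regions was 0.0484%.

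The regions without a mutant peak were all far from gene ends. Gene-end regions, which lie 1 kb or less from a start or an end of a coding gene, numbered 8 among those in both controls. All 3 mutants held every one, where 4.64% of gene-end regions of any strength were absent over the genome. Of the other, distal regions 25 of 59 (42.4%) were absent from all mutants, and the share over all distal regions was 42.0%, so the loci lay at the background. Within 10 kb of a coding gene end, 0 of 11 distal regions were absent and 25.5% over the genome. Beyond 10 kb, 25 of 48 (52.1%) were absent and 49.1% over the genome. By gene, the counts within and beyond 10 kb were 0 of 4 and 3 of 4 at Gli1, 0 of 4 and 14 of 27 at Gli2, and 0 of 3 and 8 of 17 at Gli3.

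Weak regions in the controls were those most often without a mutant peak. Strength was the mean percentile of the deposited fold within the 2 control lists, cut into 10 equal classes over the genome. Of the 8 gene-end regions of the loci, 7 lay in the strongest class. Over the genome, 0 of the 3736 gene-end regions of that class were absent from all mutants. In the lower 5 classes, 19 of 33 regions of the loci had no mutant peak, and in the upper 5 classes 6 of 34. Regions of the same strength and kind over the whole genome would give 23.9 absent regions among the 67, beside the 25 seen. In the lower 5 classes they would give 18.7 beside the 19 seen, and in the upper 5 classes 5.17 beside the 6 seen. By gene the values were 3.56 beside 3 at Gli1, 11.3 beside 14 at Gli2 and 9.0 beside 8 at Gli3. Neither the sum nor a single locus thus stood far from regions of like strength elsewhere. The folds of the 25 absent regions in the controls ran from 2.60 to 6.94, and those of the 23 regions in every library from 3.64 to 15.2 in the controls.

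**Figure D2:**
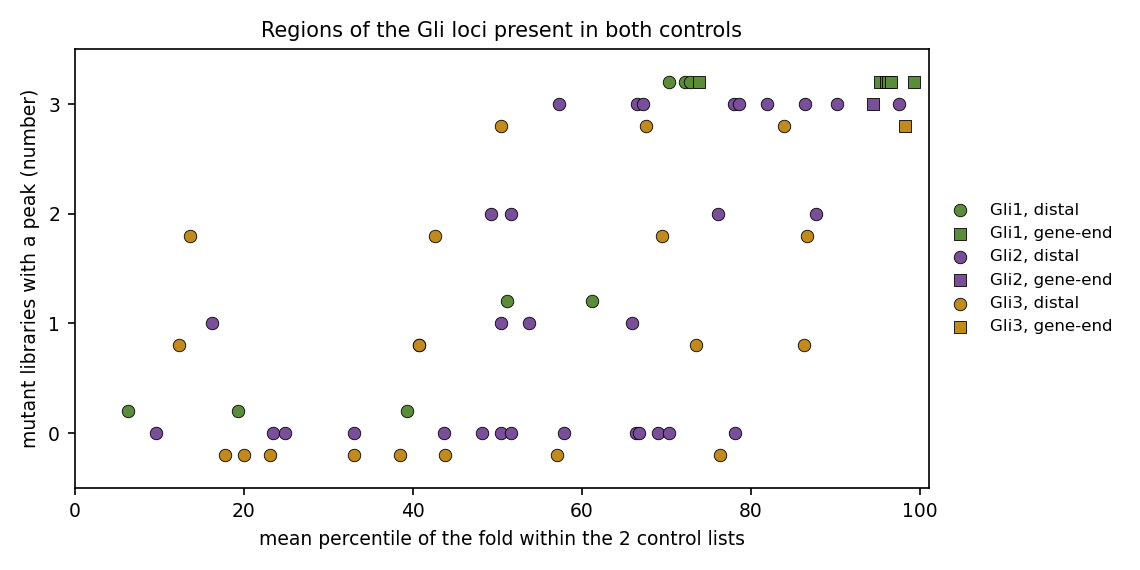
Each point is a region of a Gli locus that both controls held, placed by its strength in the controls (horizontal axis, mean percentile of fold) and by how many of the 3 mutants held it (vertical axis, with the genes shifted slightly apart). Squares are gene-end regions and circles distal ones, the upper 5 strength classes begin at 62.3, and at 0 mutants 19 points lie below that value and 6 above it.

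The controls also differed from each other. Control 2 held 69.1% of the regions of control 1 at the loci, and control 1 held 89.3% of those of control 2. Mutants 1, 2 and 3 held 39.2%, 40.2% and 25.8% of the regions of control 1. They held 48.0%, 49.3% and 33.3% of the regions of control 2. Each mutant thus held less of either control than the other control did. Over the genome the same shares were 69.2% and 80.1% between the controls, 44.2%, 45.8% and 34.1% of control 1, and 50.7%, 51.8% and 39.5% of control 2.

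**Figure D3:**
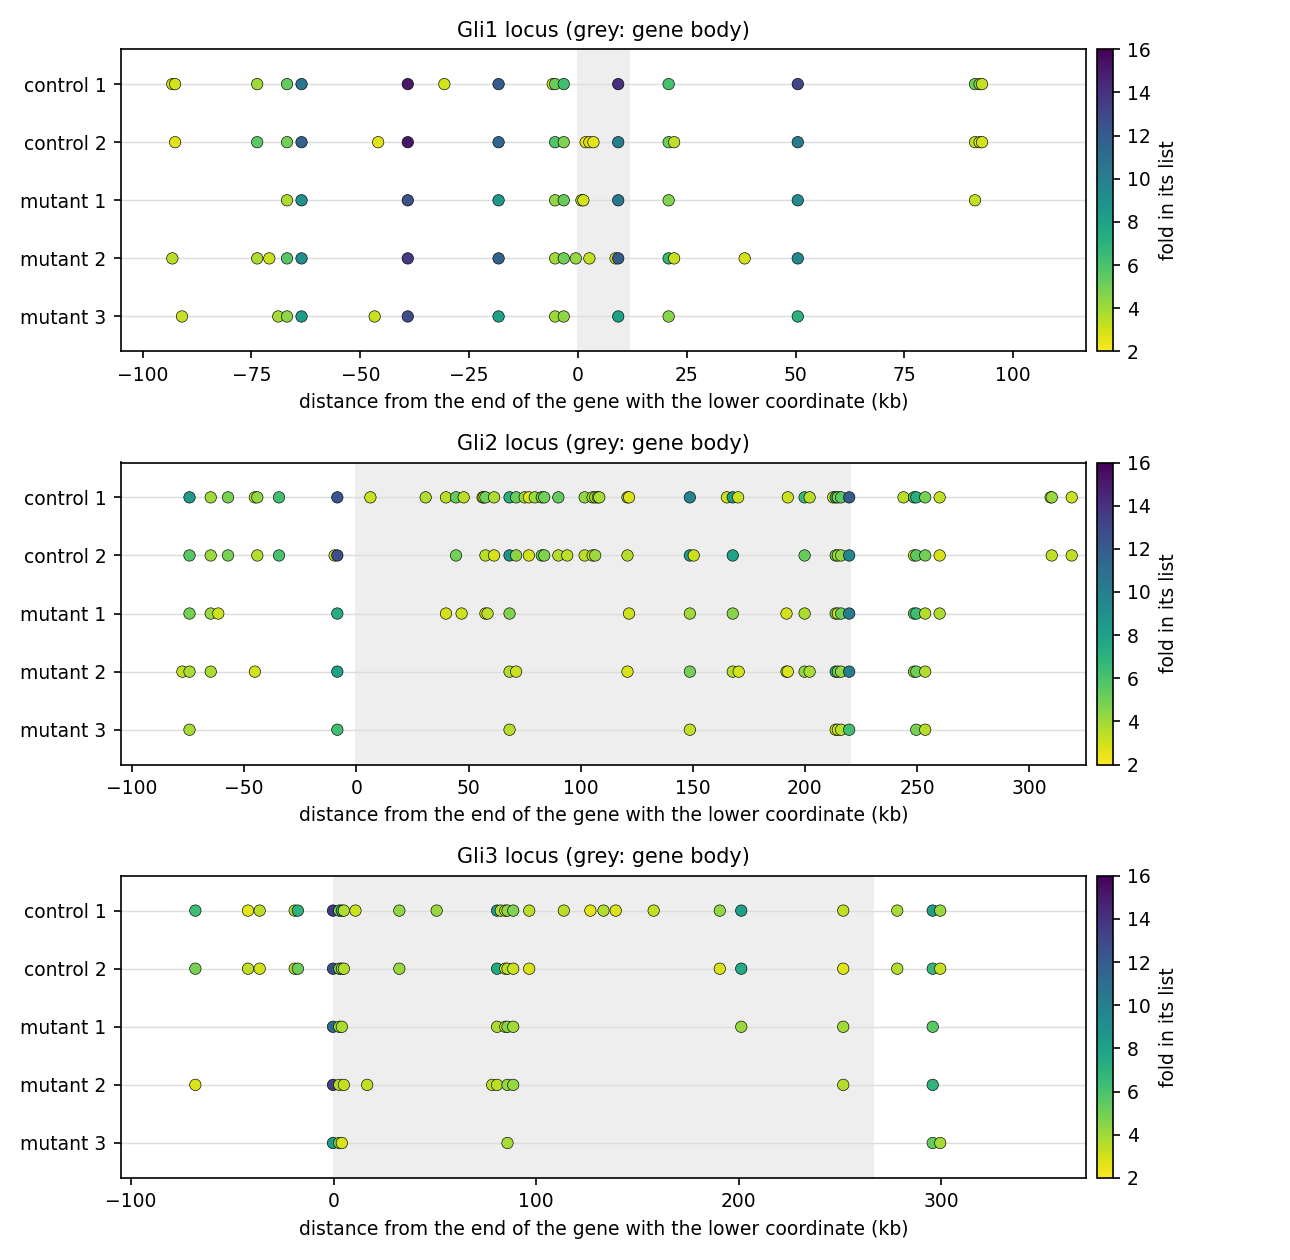
Maps of the 3 loci, with distance in kb from the gene end of lower coordinate along the horizontal axis, the gene body in grey and 1 row per library. Each point is a region with a peak, coloured by its deposited fold (scale from 2 to 16), and the mutant rows hold fewer points than the control rows inside the bodies of Gli2 and Gli3 away from their starts.

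Gli3, the gene of the main repressor, lies at chr13:15463723-15730026 on the plus strand, 266.3 kb long and the only protein-coding gene in its window. All positions in the next sentences are on chromosome 13, and the values are deposited folds, which were computed within a library and are not scaled between libraries. The region over the Gli3 start, 15461488 to 15465591, had folds of 13.7, 12.7, 11.3, 13.3 and 8.24 and covered 4089, 3599, 3470, 3741 and 3009 bp. It was the strongest region of the locus in each list.

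Next to the start, the body of Gli3 held 3 more regions. The region at 15465959 to 15466917, 2.80 kb into the gene, had folds of 5.03, 4.85, 4.17, 3.61 and 4.71. The region at 15467182 to 15468031 had folds of 6.76 and 4.18 in the controls, 3.7 in mutant 1 and 2.86 in mutant 3, and no peak in mutant 2. The region at 15468365 to 15468910 had a fold of 3.64 in both controls and 3.28 in mutant 2 alone of the mutants. All 4 regions near the start were therefore in both controls and in at least 1 mutant.

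About 80.7 to 88.6 kb into Gli3, 4 regions lay that both controls and at least 1 mutant held. The region at 15543524 to 15545446 had folds of 8.32, 7.55, 3.7 and 3.45 and no peak in mutant 3. The region at 15548272 to 15548605 had folds of 3.12, 2.83 and 3.09 and no peak in mutants 2 and 3. The region at 15549119 to 15550717 had folds of 4.33, 3.64, 4.47, 4.27 and 3.87, and it was the only region deep in the Gli3 body that all 5 libraries held. The last, 15551089 to 15552902, had folds of 4.68, 3.10, 4.01 and 4.27 and no peak in mutant 3. With lists of equal length, the stretch 15549980 to 15550717 was held by the 3 mutants but not by the controls, and in the full lists both controls had a peak in the region that holds it.

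The stretch that follows had no mutant peak for 111.5 kb, from 15552903 to 15664421. Control 1 held 7 regions there and control 2 held 2 of them. The 2 in both controls were 15559960 to 15560346, with folds of 3.47 and 2.83, and 15654016 to 15654568, with folds of 4.33 and 2.83. The 5 of control 1 alone began at 15576914, 15590356, 15596831, 15602759 and 15621405 and had folds of 3.47, 2.60, 3.64, 2.77 and 3.29. Control 2 itself had no peak over 93.7 kb of this stretch, so most of its width also separated the controls.

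Past it, the region at 15664422 to 15665249 was strong in both controls, with folds of 8.15 and 7.55, and among the mutants only mutant 1 held it, at 4.17. Near the far end of the gene, 15715059 to 15715381 was held at 3.29, 2.69, 4.01 and 3.61, with no peak in mutant 3. Between the start and these regions, 15495817 to 15496327 was in both controls (4.33 and 4.18) and in no mutant. Control 1 alone held the regions from 15474342 (3.12), 15514411 (4.16) and 15546158 (3.64), and mutant 2 alone those from 15480206 (3.28) and 15541914 (3.45).

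The flanks of Gli3 held 8 regions, all in both controls, and the mutants held 1, 2 and 2 of them. Upstream, 4 regions between 17.1 and 41.7 kb from the gene had no mutant peak. Of these, the strongest was 15445746 to 15446642 with folds of 6.94 and 5.12. The others, from 15444257 (3.64 and 3.5), 15427008 (3.47 and 2.96) and 15421396 (2.60 and 3.37), were weak in the controls. Farther upstream, 15395035 to 15395616 had folds of 6.42 and 4.85, and mutant 2 alone of the mutants held it, at 2.79.

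Downstream of Gli3, the region at 15758772 to 15759992, 28.7 kb past the gene, was in all 5 libraries with folds of 7.98, 6.60, 5.55, 6.90 and 5.38. Its neighbour at 15762976 to 15763491 had folds of 4.16 and 3.23 in the controls and 3.87 in mutant 3 only. The region at 15741758 to 15742006 had folds of 3.81 and 3.64 and no mutant peak. In the flanks 5 of the 8 regions were thus in no mutant, all of them over 10 kb from a gene end, where the share over the genome was 49.1%. In the gene body 3 of 13 regions in both controls were in no mutant, and 4 of the 13 lay at or within 10 kb of the start. Over the genome the share was 30.4% for all regions and 42.0% for distal ones.

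Gli2, the gene of the main activator in many tissues, lies at chr1:118834061-119054405 on the minus strand, 220.3 kb long and again the only protein-coding gene in its window. The positions that follow are on chromosome 1. The region over the Gli2 start, 119050853 to 119055125, had folds of 12.0, 9.57, 10.2, 10.02 and 6.22 and covered 3811, 2887, 3029, 3759 and 2341 bp. Its fold was above that of 92.0% to 96.9% of the peaks of a list in every library but mutant 3, where the value was 74.6%.

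Inside the gene and within 10 kb of the start, 3 regions were in all 5 libraries. The region at 119049598 to 119050622 had folds of 5.55, 4.31, 5.09, 4.27 and 3.53. The region at 119048514 to 119049071 had folds of 4.68, 3.91, 2.93, 4.93 and 3.03. The region at 119047513 to 119048219 had folds of 7.63, 5.12, 4.94, 7.06 and 3.20. The 4 regions in both controls around the start of Gli2, promoter included, were thus held in every mutant. Another region there, from 119046568, was in control 1 alone at 2.77.

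Beyond 10 kb from the start, 14 of 28 regions in both controls had no mutant peak. Over the genome, 49.1% of regions over 10 kb from a coding gene end had none. At Gli2, 6 of the 28 were in all 5 libraries. Among those in all libraries, 118824795 to 118827071, 7.0 kb past the downstream end of Gli2, had folds of 12.3, 12.7, 7.41, 8.05 and 6.22. Within a list, it ranked above the Gli2 start region in both controls, below it in mutants 1 and 2, and level with it in mutant 3. The region at 118981469 to 118983478, 70.9 kb into the gene, had folds of 9.71, 8.35, 4.01, 4.93 and 3.36. The region at 118901383 to 118902837, 151.3 kb into the gene, had folds of 7.11, 8.89, 4.63, 3.61 and 3.53. These 3 were among the strongest distal regions of the loci in the controls, and all 5 lists still held them.

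The other 3 regions of Gli2 in all libraries lay in its flanks. The region at 119083291 to 119084118, 28.9 kb upstream, had folds of 7.11, 5.52, 6.33, 5.09 and 4.88. The region at 119087475 to 119087962 had folds of 4.85, 4.99, 3.55, 3.61 and 3.53. At the other side, 118759377 to 118760035, 74.0 kb past the downstream end, had folds of 8.50, 5.66, 4.94, 3.78 and 3.87.

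Mutant 3 alone lacked 4 regions of Gli2 that the other 4 libraries held. The strongest was 119001064 to 119002391 with folds of 8.50, 7.95, 4.47 and 3.61. The next, 119033486 to 119034876, had folds of 6.59, 5.25, 3.7 and 4.27. The other two were 119082202 to 119082915 (5.20, 3.23, 5.55 and 4.27) and 118768797 to 118769315 (3.99, 4.04, 4.17 and 3.78). Of the mutants, only mutant 1 held the regions from 118891231 (5.03 and 3.5 in controls, 2.78 in the mutant) and 119093675 (3.29, 2.83 and 3.7). Only mutant 2 held those from 118904694 (5.20, 4.45 and 3.12) and 118954625 (4.33, 3.64 and 2.79).

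Inside the Gli2 gene, no mutant peak lay between 118906021 and 118954624 (48.6 kb). Elsewhere in the window, the longest stretches without a peak were 49.3 kb in control 1 and 50.9 kb in control 2. The stretch without a mutant peak held 12 regions, of which control 1 had 11, control 2 had 8 and both had 7. The strongest of the 7 were 118916262 to 118917027 with folds of 5.03 and 5.12, and 118917500 to 118918424 with folds of 5.03 and 4.72. The region at 118923619 to 118924420 had folds of 5.37 and 3.64. The remaining 4 began at 118935618 (4.33 and 3.5), 118940042 (3.99 and 4.04), 118939247 (3.64 and 3.23) and 118910905 (2.77 and 2.96). In the long stretch of Gli3, 2 of 7 regions were in both controls. Here 7 of 12 were. The stretch was picked for having no mutant peak, so shares over regions that mutants hold are not like it. At the whole Gli2 locus, this stretch included, regions with no mutant peak numbered 14 in both controls and 17 in 1 control. Within the Gli2 stretch, control 1 alone held the regions from 118908833 (3.99), 118913462 (3.99), 118941624 (3.64) and 118942267 (3.81). Control 2 alone held that from 118927987 (3.37).

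Outside that stretch, 7 more regions of Gli2 in both controls had no mutant peak. The strongest was 118798977 to 118799993, 34.1 kb past the downstream end, with folds of 6.24 and 6.06. The region at 118878008 to 118879336 in the gene had folds of 5.37 and 4.99, and 118776571 to 118777165 had 4.85 in both controls. The other 4 were weaker and began at 118789237 (4.33 and 3.64), 118895006 (3.64 and 2.83), 119143939 (4.16 and 3.37) and 119152936 (3.12 and 3.37). By position, 9 of 20 regions in the gene body and 5 of 12 in the flanks were absent from all mutants. Of these 32 regions 31 were distal, and 42.0% of distal regions over the genome were absent.

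The single-library regions of Gli2 were mostly from control 1. Besides those named above, control 1 alone held the regions from 118840037, 118864891, 118881788, 118890192 and 118890708, with folds of 3.12, 3.64, 3.47, 3.29 and 3.29. It also alone held those from 118999215, 119004149, 119077986 and 119143506, with folds of 3.12, 3.12, 3.47 and 3.12. Control 2 alone held 118824175 to 118824667 (3.10) and 118984304 to 118984554 (3.10). The regions of a single library at Gli2 had folds of 2.77 to 3.99, in the weak range of the lists.

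Mutant peaks in Gli2 regions that were not in both controls were few. Mutant 1 alone held the regions from 118772361 (3.09), 118880932 (3.09) and 118892400 (3.39), and mutant 2 alone those from 118756409 (3.28) and 119004510 (2.96). Mutants 1 and 2 shared 1 region with no control peak, 119025651 to 119026039, 27.8 kb into the gene, with folds of 2.93 and 3.28. Control 1 shared regions with mutant 1 from 118873763 (3.47 and 2.93) and 118955456 (2.77 and 3.09). It shared regions with mutant 2 from 118788653 (3.29 and 2.96), 119026151 (3.12 and 2.79) and 119035863 (3.47 and 3.78).

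Gli1, the pathway target, lies at chr10:127329882-127341579 and is 11.7 kb long. Its window differs from those of Gli2 and Gli3, since it holds 10 protein-coding genes. Of its 31 regions 10 were within 1 kb of a gene end, against 1 each at Gli2 and Gli3. A region of this window cannot be assigned to Gli1 by position alone. The positions that follow are on chromosome 10.

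The region at the end of Gli1 with the higher coordinate, 127338694 to 127342893, had folds of 14.0, 10.1, 10.5, 12.0 and 8.07 and covered 4155, 4114, 4077, 4019 and 3780 bp. Its fold was above that of 98.99% and 93.3% of the peaks in controls 1 and 2 and of 96.3%, 97.0% and 87.0% in the mutants. The Gli1 end was therefore accessible in each embryo, mutants included. Within the Gli1 body no other region was in both controls. Control 2 alone held regions from 127331611 (2.56) and 127333320 (2.56), and shared with mutant 2 that from 127332123 (2.69 and 3.28). Mutant 1 alone held those from 127330596 (3.39) and 127330925 (2.93), and mutant 2 alone that from 127338416 (2.96). A region just past the lower end, from 127329235, was in mutant 2 alone at 4.27, and it lies at the ends of both Gli1 and Arhgap9.

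Other gene ends near Gli1 were in all 5 libraries. The region at 127286684 to 127292221, at the ends of Ddit3 (a stress response factor) and Mbd6, had folds of 15.1, 15.2, 12.5, 13.6 and 12.8. The region at the end of Mars1 (methionyl-tRNA synthetase), 127311016 to 127312734, had folds of 12.1, 11.45, 8.49, 11.7 and 8.07. The region between Dctn2 (a dynactin subunit) and Kif5a (a kinesin heavy chain), 127265804 to 127267206, had folds of 10.6, 11.6, 8.95, 9.20 and 8.24. Like the Gli1 end, these gene ends were held in every library.

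On the other side of Gli1, 127379874 to 127382218 at an end of R3hdm2 had folds of 13.0, 10.2, 9.26, 9.53 and 7.06. The region at 127350332 to 127351369 at an end of Inhbe (an inhibin beta subunit) had folds of 6.07, 5.12, 4.63, 6.73 and 4.54. Next to it, 127351488 to 127352122 was in control 2 (3.37) and mutant 2 (3.12). Both regions lay within 10 kb of Gli1.

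Distal regions near Gli1 that all 5 libraries held were 3. The region at 127325538 to 127327361, 2.5 kb from Gli1 and inside Arhgap9, had folds of 6.24, 4.72, 5.25, 5.09 and 4.37. Its neighbour at 127324392 to 127325151 had folds of 5.20, 5.79, 4.32, 3.94 and 4.04. The third, 127262404 to 127263407 in Kif5a, had folds of 5.37, 4.99, 3.7, 5.75 and 4.37. Both of the regions in Arhgap9 were within 10 kb of Gli1.

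The 3 regions of the Gli1 window in both controls and no mutant were at its outer parts. They were 127421781 to 127422508 (4.68 and 2.96) and 127422644 to 127423310 (3.29 and 2.96) in R3hdm2, and 127237154 to 127237435 (2.95 and 2.69) in Kif5a. All lay 80.2 to 92.4 kb from Gli1. With a window of 50 kb the window of Gli1 held none. Beside them, 127420880 to 127421287 was in both controls (5.03 and 3.37) and mutant 1 (3.24), and 127256008 to 127256602 was in both controls (3.99 and 5.52) and mutant 2 (3.78).

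The remaining regions of the Gli1 window were weak. Control 1 alone held those from 127299046 (2.95) and 127323903 (2.95), and shared with mutant 2 that from 127236494 (2.95 and 3.45). Control 2 alone held that from 127283937 (2.69). Mutant 2 alone held those from 127258795 (3.12) and 127368068 (2.96), and mutant 3 alone those from 127238833 (3.20), 127260937 (3.87) and 127282997 (3.20). Regions with a mutant peak and no control peak numbered 9 of 31 at Gli1, 6 of 60 at Gli2 and 2 of 31 at Gli3, together 13.9% of the 122, where the share over all regions was 11.8%. All but 1 of the 17 came from a single library, and the difference between the loci was not tested.

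Other genes of the Hedgehog pathway were taken with the same window. Over 28 genes, 78 of 348 distinct regions in both controls (22.4%) had no mutant peak, beside 21.4% at Gli1, 43.8% at Gli2 and 38.1% at Gli3, and no region was in all mutants and no control. Among ligands and factors for their release the count was 15 of 80, among receptors and co-receptors 27 of 88, among the transducers of Smoothened signalling 7 of 41 and among regulators of GLI proteins 29 of 139. Receptors were the group with the highest share, 30.7%, which is near the 30.4% over all regions. For 7070 windows of protein-coding genes with at least 10 regions in both controls, the median share was 12.5% (quartiles 5.88% and 23.5%). The windows differ in how many gene ends they hold, and the difference between the Gli genes and the lists was not tested.

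Single pathway genes ranged widely on small counts. Hhip, an antagonist that binds Hedgehog ligands, lacked 4 of 5 regions, and Boc, a co-receptor, lacked 7 of 16, the same share as Gli2. Ptch1, the receptor and a standard target, lacked 3 of 9, and Smo, the transducer, 2 of 13. Of the proteins that act on GLI factors, Gsk3b, a kinase of the processing step, lacked 5 of 10 and Btrc, the adaptor of its ubiquitin ligase, 7 of 17. Sufu, which holds GLI proteins in the cytoplasm, lacked 4 of 23, and Kif7, a ciliary kinesin, 0 of 14. Shh, the ligand of the limb, had 3 regions in both controls, of which 1 was absent. Among related zinc finger genes, 25 of 90 regions were absent, with Glis3 at 6 of 8 and Glis2 at 1 of 21.

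**Figure D4:**
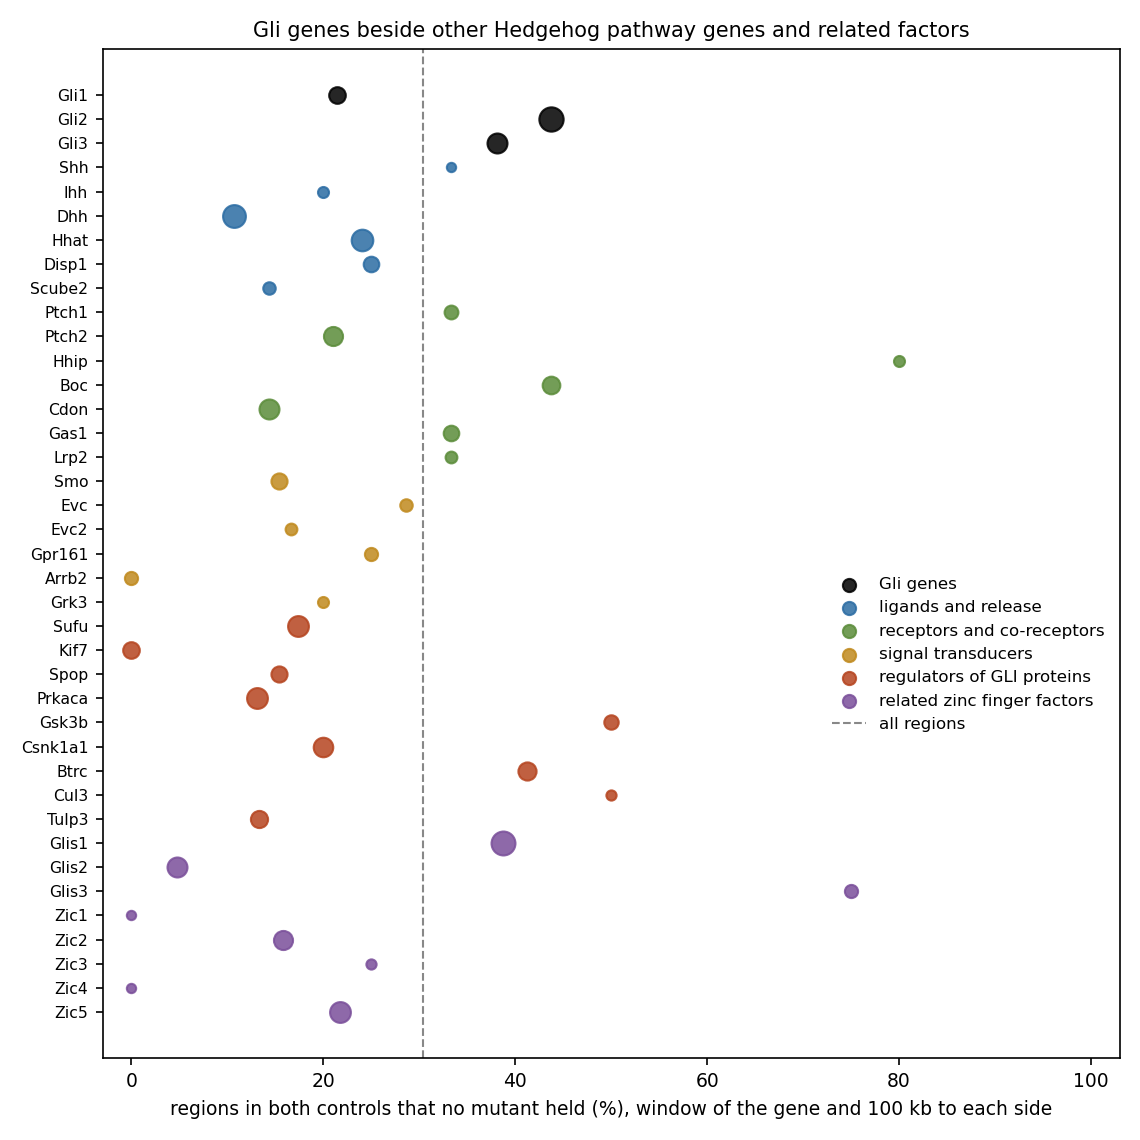
Share of the regions in both controls that no mutant held (horizontal axis, percent) for the window of each Gli gene, of other Hedgehog pathway genes and of related zinc finger genes. Larger points have more regions in both controls, the dashed line is the 30.4% of all regions, and Gli2 and Gli3 lie right of it while Gli1 lies left.

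The genes whose windows were most like each Gli locus in the shares of regions held by the 5 libraries were found by Euclidean distance over those 5 shares, among windows with 0.5 to 2 times as many regions. For Gli1 the nearest were Lipe and Chkb, at distances of 5.0 and 5.35 percentage points. Nearest to Gli2 were Hmga2, Pdzd2 and Tead1, at 4.51, 6.90 and 7.0 points. For Gli3, Frmd4a, Map7 and Prn came first, at 5.61, 5.91 and 5.96 points. The candidates numbered 7778 for Gli1, 2984 for Gli2 and 7797 for Gli3, so many windows were compared to find these.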

How the data were processed

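Groups came from the genotype in the labels, and replicate numbers only name the libraries. Per the submitters' processing notes, bcl2fastq 2.20.0, Bowtie2 2.3.5, the build mm10 and MACS2 were used. The sources used here do not give the MACS2 version, its options, duplicate removal or the shift for the transposase cut; duplicates would raise folds and a missing shift would move borders by a few bases. Each library has its own list, deposited by the authors without pooling, with positions, a display score (not used), a fold enrichment ratio at the summit, and −log10 p-values and −log10 q-values. The deposited fold was used only to describe and rank peaks within a list.

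Peaks of chromosomes 1 to 19 and X were merged at 1 bp overlap with Python 3.11.15 and pandas 2.3.3, and a region was held by a library with a peak in it. Genes were the 21631 protein-coding genes of the RefSeq table (GRCm38.p6), which gives no strand and no exons, so gene-end means within 1 kb of either end, and exons and introns were not separated. Strands and starts of Gli2 and Gli3 came from the RefSeq promoter table. Shares of regions per library were compared with an exact two-sided permutation test over libraries. Shares of regions have no test, because regions are not replicates. Counts and p were checked on simulated data. Named genes were the 3 Gli genes with all their regions, genes with an end at such a region, listed Hedgehog pathway and related zinc finger genes, and the 3 windows most alike per gene, of which 1 is not reported here. The genes, gene lists and tests were chosen with earlier results of these data known. Alternatives were stricter q-values, lists of equal length, a larger overlap, other windows, distal regions only, summits only, and leaving out each library.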

Additional observations from a re-analysis of the deposited data

How the results depend on the processing

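The lower share of regions held in mutants over the 3 loci, -37.2 points, kept its direction under every alternative tried. It was -43.1 and -54.6 points at −log10 q of at least 5 and 10, -13.7 with lists of equal length, -35.2 with an overlap of at least 50% of the shorter peak, -37.3 with flanks of 50 kb, -38.2 in gene bodies and -42.0 for distal regions. Leaving out 1 library at a time gave -49.0 to -32.9 points. No exact permutation p could fall under 0.2. For Gli1 alone the difference reversed to 2.94 points with lists of equal length (exact permutation p = 1). The share of regions in both controls that no mutant held, 37.3%, was 50.0% at −log10 q of at least 10, where fewer regions are counted, and 23.5% with lists of equal length. Leaving out 1 library gave 38.8% to 52.5%, the highest without control 2. For a fixed set of regions, leaving out a mutant could only keep or raise the share, because fewer lists had to lack a peak. Leaving out a control let in regions that the other control alone held. The rise is therefore no check of the 37.3%. For Gli1 that share was 0% with lists of equal length, with flanks of 50 kb and in the gene body. At −log10 q of at least 10 it was 62.5% for Gli2 (10 of 16 regions) and 71.4% for Gli3 (5 of 7). The share over all regions at that threshold is not given here. No paired analysis was possible because nothing in the labels ties a control embryo to a mutant embryo, and the numbers used here only name the libraries. The unknown read depth limits every statement on absence to the peak caller's floor.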
